A study of Mus musculus with 15 samples.

Results

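The genes described here are 5 ATP-binding cassette (ABC) efflux transporters, Abcg2, Abcb1a, Abcb1b, Abcc1 and Abcc4, whose proteins export fluorescent dyes used to stain cells. They were chosen by name, with earlier results of these data known, so the share of them called is a description only. All 5 were among the 16154 genes in the deposited count table. RNA was measured in haematopoietic stem cells (HSC) sorted from the bone marrow of C57BL/6 mice, all labelled female, with 1 library per mouse and 5 libraries in each of 3 groups. Young mice were 6 to 12 weeks old and aged mice 20 to 24 months old, and neither group received nicotinamide riboside (NR), a vitamin B3 form and precursor of NAD. NR-treated aged mice had the same age range as aged mice and drank water with NR at 3 mg/ml for 2 months. The sort kept cells that lack lineage markers and CD48 and carry Sca-1, cKit and CD150, and no transgene or deletion was named for any group.

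ABC transporters are membrane proteins that use ATP to move substrates across a membrane. Abcg2 (breast cancer resistance protein) exports Hoechst dyes and gives bone marrow stem cells their dye-low side population. In mice, Abcb1a and Abcb1b together take the role of human P-glycoprotein, which exports rhodamine dyes and many mitochondrial dyes and is blocked by verapamil. Abcc1 (MRP1) exports glutathione conjugates and the cleaved forms of calcein and carboxyfluorescein dyes, and Abcc4 (MRP4) exports cyclic nucleotides and other organic anions. Mitochondrial mass was stained in the same study with verapamil present, and mitochondrial network size was measured separately in fixed HSC by Tom20 immunolabelling. The comparisons here ask whether transporter RNA differed between the groups. Only RNA was counted, and neither transporter protein nor dye export was measured in these libraries.

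Abcb1a and Abcb1b are neighbouring copies on chromosome 5 of GRCm38, at 8660077 to 8748575 and 8798147 to 8866315 on the plus strand, 49571 bp apart. Their coding sequences of 3831 bases each were 88.1% identical over 3822 aligned bases. The last stretch of each coding sequence, from GENCODE M21 transcripts, is shown because these libraries were read from the 3′ end. It ends 365 bases before the end of the Abcb1b transcript, but 1014 bases before that of Abcb1a. Capitals mark the 2 substituted bases and the 6 bases found in Abcb1a alone.

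Abcb1a: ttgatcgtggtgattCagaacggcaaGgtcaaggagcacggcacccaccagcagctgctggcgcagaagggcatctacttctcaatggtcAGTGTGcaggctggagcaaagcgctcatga
Abcb1b: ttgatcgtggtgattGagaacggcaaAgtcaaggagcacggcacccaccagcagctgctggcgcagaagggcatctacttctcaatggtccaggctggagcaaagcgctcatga

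Of the 50-base windows in the last 1000 bases of the Abcb1b transcript, 24.9% also occurred in Abcb1a, whereas 0 of 951 windows in the last 1000 bases of Abcb1a occurred in Abcb1b. No window after either stop codon was shared. A read lying wholly in shared sequence could not be given to 1 copy, so the counts of this pair may be less certain than those of the other transporters. The sequenced cDNA reads were longer than these windows and can span a difference beside a shared window. How many reads fell in shared sequence was not measured.

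The 250 bases before the RefSeq starts of the pair (GRCm38.p6, plus strand) are shown because both genes moved in the same direction. The Abcb1a window lies at chr5:8566841-8567090 and the Abcb1b window at chr5:8797897-8798146. Capitals mark matches on either strand to the letters CCAAT, to GGGCGG and to the letters ACGTG.

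Abcb1a: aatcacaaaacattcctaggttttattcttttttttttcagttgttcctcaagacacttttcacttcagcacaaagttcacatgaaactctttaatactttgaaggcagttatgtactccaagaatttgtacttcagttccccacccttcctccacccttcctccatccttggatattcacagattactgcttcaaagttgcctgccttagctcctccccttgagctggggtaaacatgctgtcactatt
Abcb1b: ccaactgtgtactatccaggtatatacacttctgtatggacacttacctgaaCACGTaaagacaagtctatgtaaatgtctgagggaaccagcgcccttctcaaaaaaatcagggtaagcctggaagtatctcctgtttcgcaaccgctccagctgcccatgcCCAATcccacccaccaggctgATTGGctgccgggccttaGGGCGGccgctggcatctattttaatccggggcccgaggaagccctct

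The Abcb1b window held 2 CCAAT, 1 GGGCGG and 1 ACGTG match, and the Abcb1a window held no match to these letters or to TATAAA or TGACNNNGC. Over 32851 RefSeq promoters, 33.8% of such windows held CCAAT, 32.7% GGGCGG, 16.6% ACGTG, 12.4% TATAAA and 10.2% TGACNNNGC. The G and C content was 40.4% for Abcb1a and 52.8% for Abcb1b, beside a median of 52.4% over all windows. The RefSeq start of Abcb1a was 92986 bp from the nearest principal GENCODE start and that of Abcb1b 39 bp, so the windows were not equally close to an annotated start. Of the 5 transporters 4 matched a RefSeq promoter, and Abcc1 did not.

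Total counts per library ranged from 2122221 to 3631395 in young, 764119 to 13318989 in aged and 2486399 to 3595384 in NR-treated aged HSC. Aged replicate 2 was the shallowest library. Young replicates 1 and 5, labelled female, held 103.6 and 107.7 CPM (counts scaled to a common library total) of 4 Y-linked genes, against at most 3.16 CPM in each of the other 13 libraries. Young replicate 3 held 5516 CPM of 11 neutrophil genes, against 25.3 to 649 CPM in the other young libraries. All 12 HSC markers searched were in the table, and their summed level was 1535 to 1880 CPM in young, 1739 to 2164 in aged and 1647 to 2102 in NR-treated aged HSC. All other values are CPM on TMM effective library sizes, which correct totals for a few very abundant genes. A gene was called at an adjusted p under 0.05 in edgeR's quasi-likelihood test, adjusted by Benjamini-Hochberg over all genes.

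Abcg2, Abcb1a and Abcb1b were higher and Abcc1 lower in aged than in young HSC, while Abcc4 was not called. These were 4 of 5 transporters, 3 higher and 1 lower, where 19.3% of all genes were called, 9.68% higher and 9.63% lower. The same 4 did not overlap between the groups, against 12.4% of all genes. With library totals in place of TMM, the share of called genes that were higher in aged HSC went from 50.1% to 29.1% and the median log2 difference of all genes was -0.16, and the direction of the 4 transporters was kept. In bulk RNA, a larger share of cells with a transcript and more of it per cell cannot be told apart.

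**Figure D1:**
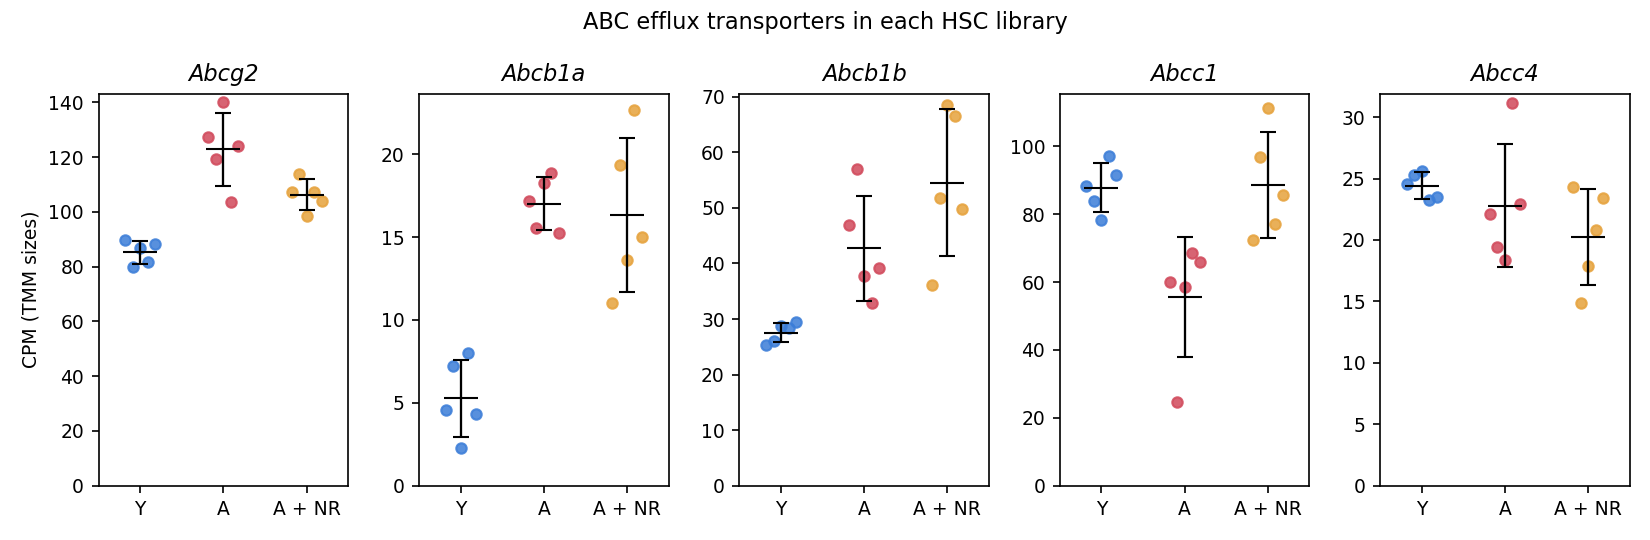
Levels of the 5 transporters in each library in CPM (TMM sizes), for young (Y), aged (A) and NR-treated aged (A + NR) HSC; points are libraries, and bars give the mean and SD of 5. The aged and NR-treated libraries lie above all young ones for Abcg2, Abcb1a and Abcb1b, and the aged libraries lie below both other groups for Abcc1.

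Abcg2 (chromosome 6, 58584523 to 58695676, plus strand) was measured at 89.8, 80.0, 86.7, 81.6 and 88.2 CPM in young HSC. In aged HSC it was 127.3, 119.4, 140.2, 103.5 and 123.9 CPM. In NR-treated aged HSC it was 107.3, 113.9, 98.4, 107.4 and 104.0 CPM. Every aged and every NR-treated library was thus above every young one, and the aged and NR-treated libraries overlapped. Abcg2 rose 1.44-fold with age, from 85.3 ± 4.26 to 122.9 ± 13.3 CPM (SD, n = 5 each), a log2 difference of 0.53 (95% interval 0.32 to 0.73, edgeR adjusted p = 0.000981). The call was kept without the 2 young libraries holding Y-linked RNA (0.57, edgeR adjusted p = 0.00637) and without aged replicate 2 and young replicate 3 (0.55, edgeR adjusted p = 0.00332). The NR-treated mean, 106.2 ± 5.64 CPM, stood between the others. Its log2 difference was -0.21 from aged HSC (interval -0.41 to -0.010, edgeR adjusted p = 0.176) and 0.32 from young HSC (interval 0.11 to 0.52, edgeR adjusted p = 0.0722), and neither was called. With library totals in place of TMM, the difference from aged HSC shrank to -0.074 (edgeR adjusted p = 0.664). Against young HSC the call depended on the test, since DESeq2 gave an adjusted p of 0.0447.

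Abcb1a had the largest change of the 5 from young HSC, in both aged groups, and few counts. It was measured at 4.56, 7.23, 2.25, 7.98 and 4.32 CPM in young HSC, from 5 to 22 counts. In aged HSC it was 17.2, 15.6, 18.3, 18.8 and 15.3 CPM, and in NR-treated aged HSC 11.02, 19.4, 13.6, 22.6 and 14.98 CPM. No young library reached the lowest library of either aged group, and the aged range lay inside the NR-treated range. Abcb1a rose 3.24-fold with age (log2 difference 1.70, interval 1.15 to 2.25, edgeR adjusted p = 0.000181). NR-treated aged HSC were 3.07-fold above young HSC (log2 difference 1.62, interval 1.06 to 2.17, edgeR adjusted p = 0.000793). Between NR-treated and untreated aged HSC the log2 difference was -0.078, and its interval of -0.57 to 0.41 allows a change of up to about 1.33-fold upward or down to 0.674 of the aged level. Without the young libraries holding Y-linked RNA both calls were kept, at 1.53 for aged and 1.45 for NR-treated aged HSC (edgeR adjusted p = 0.00532 and 0.0140). After thinning every library to the smallest total, the difference from young HSC was 1.29 for NR-treated aged HSC and was no longer called (edgeR adjusted p = 0.156).

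Abcb1b rose with age by less than Abcb1a did on the log2 scale, a difference between the genes that was not tested. Its values were 25.3, 26.1, 28.7, 28.3 and 29.4 CPM in young HSC. In aged HSC they were 47.0, 57.1, 37.8, 32.9 and 39.2 CPM, and in NR-treated aged HSC 36.2, 51.9, 68.4, 66.5 and 49.8 CPM. The young libraries were close together and below every other library, and the other groups overlapped. The mean went from 27.6 ± 1.78 to 42.8 ± 9.46 CPM with age, 1.51-fold (log2 difference 0.59, interval 0.23 to 0.95, edgeR adjusted p = 0.0217). This call was lost with library totals (0.47, edgeR adjusted p = 0.0748), after thinning (0.61, edgeR adjusted p = 0.113), without the 2 young libraries holding Y-linked RNA (0.58, edgeR adjusted p = 0.0827), and without aged replicate 2 and young replicate 3 together (0.52, edgeR adjusted p = 0.0574). NR-treated aged HSC, at 54.6 ± 13.3 CPM, were 1.97-fold above young HSC (log2 difference 0.98, interval 0.62 to 1.34, edgeR adjusted p = 0.00144). Against untreated aged HSC the log2 difference was 0.39 (interval 0.038 to 0.73, edgeR adjusted p = 0.153), and it was called without NR-treated replicate 1 (0.51, edgeR adjusted p = 0.0463).

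Counted together, the Abcb1 pair stood at 32.8 ± 2.52 CPM in young, 59.8 ± 8.55 in aged and 70.9 ± 16.3 in NR-treated aged HSC. For each Abcb1a count, young libraries held 3.55 to 12.8 Abcb1b counts, aged libraries 1.75 to 3.67 and NR-treated libraries 2.68 to 5.03. Both genes were among the 359 (2.22% of all genes) called higher than young in both aged groups. These comparisons share the young libraries and are therefore not independent.

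Abcc1 (chromosome 16, 14361558 to 14475737, plus strand) was lower in aged HSC than in both other groups. It was measured at 88.4, 84.0, 78.1, 97.2 and 91.4 CPM in young HSC. In aged HSC it was 60.0, 24.7, 58.6, 68.4 and 65.9 CPM, and in NR-treated aged HSC 72.3, 96.9, 111.2, 77.1 and 85.5 CPM. All aged libraries lay below every young and every NR-treated library, and the low value of 24.7 CPM came from 19 counts in the shallowest library. Abcc1 fell by 0.60 on the log2 scale with age, from 87.8 ± 7.25 to 55.5 ± 17.7 CPM, so that young HSC held 1.52-fold more (interval -0.96 to -0.25, edgeR adjusted p = 0.0185). Without aged replicate 2 and young replicate 3 it was -0.51 (edgeR adjusted p = 0.0138), and without the young libraries holding Y-linked RNA -0.58 and no longer called (edgeR adjusted p = 0.0758).

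With NR, Abcc1 was the 1 transporter of 5 called between NR-treated and untreated aged HSC, and it was higher, where 8.07% of all genes were called with 3.88% higher and 4.18% lower. It was also the 1 transporter whose libraries did not overlap, against 8.6% of all genes. With library totals in place of TMM, the share of called genes that were higher went from 48.1% to 78.4%, the median of all genes was 0.16, and Abcc1 was still higher. The mean of NR-treated aged HSC was 88.6 ± 15.7 CPM, 1.53-fold above aged HSC (log2 difference 0.61, interval 0.26 to 0.97, edgeR adjusted p = 0.0333). The call was lost after thinning (0.69, edgeR adjusted p = 0.0724), without aged replicate 3 (0.63, edgeR adjusted p = 0.0713), and without NR-treated replicate 2, 3 or 4 (0.58, 0.52 and 0.66, edgeR adjusted p = 0.0688, 0.0961 and 0.0527). It was kept without aged replicate 2 and young replicate 3 (0.48, edgeR adjusted p = 0.0267). Against young HSC the log2 difference was 0.00944 (interval -0.34 to 0.36, edgeR adjusted p = 0.990). Abcc1 was among 418 genes (2.59%) called lower in aged HSC than in both other groups, comparisons that share the aged libraries.

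Abcc4 (chromosome 14, 118482692 to 118706219, minus strand) was called in no comparison. It was measured at 24.6, 25.3, 25.6, 23.2 and 23.5 CPM in young HSC. In aged HSC it was 22.1, 19.5, 18.3, 31.1 and 22.9 CPM, and in NR-treated aged HSC 24.3, 14.9, 17.9, 20.8 and 23.4 CPM. All 3 groups overlapped, and the young libraries were the closest together. The log2 difference was -0.083 for aged against young HSC (interval -0.43 to 0.27), -0.18 for NR-treated against untreated aged HSC (interval -0.53 to 0.17) and -0.26 for NR-treated aged against young HSC (interval -0.62 to 0.091). These intervals do not show that its level was the same.

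**Figure D2:**
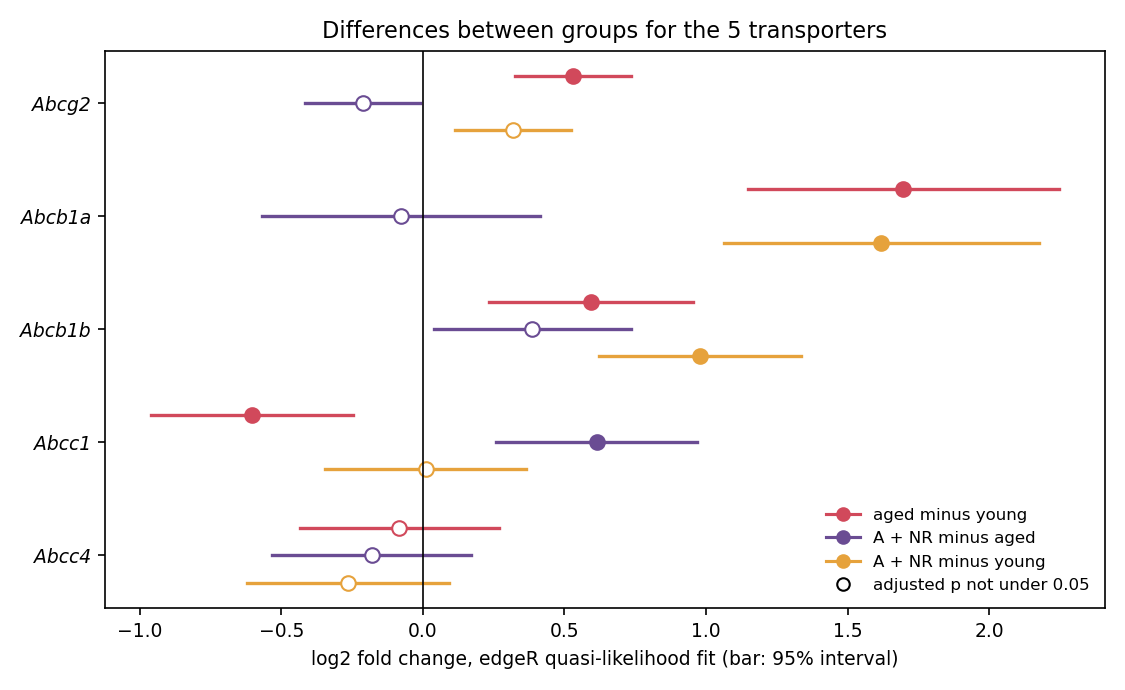
Log2 fold changes of the 5 transporters from the edgeR fit with 95% intervals, for aged minus young, NR-treated aged minus aged and NR-treated aged minus young HSC; filled points passed an adjusted p of 0.05. Abcb1a stands furthest from 0, at 1.70 and 1.62 above young HSC, and Abcc1 is the only transporter with filled points on both sides of 0.

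Between NR-treated aged and young HSC, 2 of 5 transporters were called, Abcb1a and Abcb1b, both higher, where 4.47% of all genes were called, 2.56% higher and 1.91% lower. Abcg2 joined them in not overlapping with young HSC, against 4.74% of all genes whose libraries did not overlap. For a single gene of 5 against 5 libraries, the exact two-sided permutation test of log2 CPM gives 0.00794 at the smallest. Each transporter whose groups did not overlap reached it, which follows from the lack of overlap and adds nothing to it. The median log2 difference of the 5 transporters was 0.53 with age, -0.078 with NR and 0.32 for NR-treated aged against young HSC, and the medians of all genes were -0.032, 0.020 and -0.00461.

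Transcripts of other cell types differed between groups for some lists and overlapped for others. The summed level of 12 erythroid genes was 2356 to 4731 CPM in young, 5636 to 9036 in aged and 1977 to 3113 in NR-treated aged HSC. Neutrophil genes summed to 25.3 to 5516 CPM in young, 1076 to 1687 in aged and 15.7 to 172 in NR-treated aged HSC, and 11 B-cell genes 108 to 868 in young, 609 to 4505 in aged and 92.9 to 165 in NR-treated aged HSC. Macrophage and monocyte genes stood at 393 to 2674, 712 to 1720 and 317 to 509 CPM in the same order. With age, 5 of 12 erythroid and 4 of 11 B-cell genes were called, all higher, beside 9.68% of all genes called higher. Of the neutrophil genes 0 of 11 and of the macrophage and monocyte genes 0 of 11 were called, beside 19.3% of all genes. The neutrophil sum of young replicate 3, 5516 CPM, lay above every aged library. The other young libraries, at 25.3 to 649 CPM, lay below every aged one, and the medians were 70.5 CPM in young and 1454 in aged HSC. Macrophage and monocyte sums overlapped through young replicates 3 and 4, at 2674 and 787 CPM, with medians of 514 in young and 1478 in aged HSC. With NR, 9 of 12 erythroid and 6 of 11 B-cell genes were called lower than in untreated aged HSC. So were 9 of 11 neutrophil and 5 of 11 macrophage and monocyte genes, beside 4.18% of all genes. The part of erythroid, neutrophil, B-cell and macrophage RNA in the age and NR differences of all 5 transporters was not tested.

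Endothelial cells, which use Abcb1a and Abcg2 at barriers, were also searched for. Of 12 endothelial genes, 4 were not in the table (Cdh5, Flt4, Stab2 and Sox17), Plvap had 0 to 19 counts in any library, and the summed level of the 8 measured was 295 to 354, 409 to 483 and 328 to 466 CPM in young, aged and NR-treated aged HSC. Kdr, an endothelial receptor, had medians of 6.67, 18.2 and 16.4 CPM in that order, and Cldn5, a tight junction gene, 0.363, 12.8 and 6.50 CPM, both called higher in both aged groups than in young HSC. Vwf, which was also on the platelet list, went from 72.7 ± 9.76 CPM in young to 173.6 ± 20.1 in aged HSC, where the median of the sum went from 306 to 437 CPM. These were 3 of 8 called higher with age, beside 9.68% of all genes. The other 5 were not called with age. Of these, Emcn, Robo4 and Tie1 had lower medians in aged than in young HSC. Medians in young, aged and NR-treated aged HSC were 28.6, 20.3 and 16.1 CPM for Emcn and 28.7, 21.6 and 23.7 for Robo4. Those of Tie1 were 83.2, 68.1 and 84.4 CPM. Egfl7 and Plvap had higher medians in aged than in young HSC, at 93.6, 115.7 and 113.6 CPM and 0.402, 2.02 and 0 CPM in the same order. The median log2 difference of the 8 endothelial genes was 0.78 with age and 0.11 for NR-treated aged against young HSC. Of 11 megakaryocyte and platelet genes, 4 were called higher with age, beside 9.68% of all genes, among them Clu (log2 difference 3.39) and Selp (3.03), and the sums were 923 to 1001, 1529 to 1874 and 1195 to 2114 CPM. Of 8 T and NK cell genes, Klrb1c was the 1 called with age, beside 19.3% of all genes, with medians of 9.12, 140.1 and 64.7 CPM. The sums were 108 to 198, 206 to 252 and 138 to 217 CPM, while the median log2 difference of the 8 was -0.47 with age and -1.83 for NR-treated aged against young HSC. The part of endothelial, platelet and lymphoid transcripts in the levels of Abcb1a, Abcb1b and Abcg2 was not tested.

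Of the 12 HSC markers 4 were called with age, all higher, beside 9.68% of all genes. Of the genes behind the sort, Kit was called in none of the 3 comparisons, with medians of 381, 323 and 394 CPM in young, aged and NR-treated aged HSC. Slamf1, which encodes CD150, was 42.7 ± 8.26 CPM in young and 76.5 ± 9.81 in aged HSC (log2 difference 0.84, edgeR adjusted p = 0.000373) and 53.7 ± 6.02 in NR-treated aged HSC. Ly6a, which encodes Sca-1, rose by 1.21 on the log2 scale with age. Cd48 was lower with NR, at 3.50 ± 1.78 CPM against 24.2 ± 13.4 in untreated aged HSC (log2 difference -2.83, edgeR adjusted p = 0.00776). Procr, an HSC surface receptor outside the gate, rose by 1.27 with age. Of 8 multipotent progenitor genes, Flt3, Cd34 and Cd27 were called lower in aged HSC, beside 9.63% of all genes. The sums of these progenitor genes were 708 to 1238, 424 to 715 and 358 to 645 CPM in young, aged and NR-treated aged HSC.

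Among 28 other ABC genes measured of 48 searched, 4 (14.3%) were called with age, 4 (14.3%) with NR and 2 (7.14%) between NR-treated aged and young HSC, beside 19.3%, 8.07% and 4.47% of all genes. With age, Abca4, a retinoid transporter, rose by 1.17 on the log2 scale and Abcc5, a cyclic nucleotide exporter, by 0.39. Tap2, which with Tap1 carries peptides for antigen presentation, fell by 0.79, and Abcb4, a phospholipid exporter that lies 27401 bp beyond Abcb1b, fell by 0.76. Abcb4 thus moved against the Abcb1 pair. With NR, Tap2 rose by 0.85, Tap1 by 0.56, and the lipid transporters Abca7 and Abca2 by 0.64 and 0.54. Against young HSC, NR-treated aged HSC were higher for Abca4 (1.35) and Tap1 (0.68). No gene of the D family or of the E and F families, which act in translation, was called in any of the 3 comparisons. The median log2 difference of the 28 was -0.059 with age and 0.041 with NR.

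**Figure D3:**
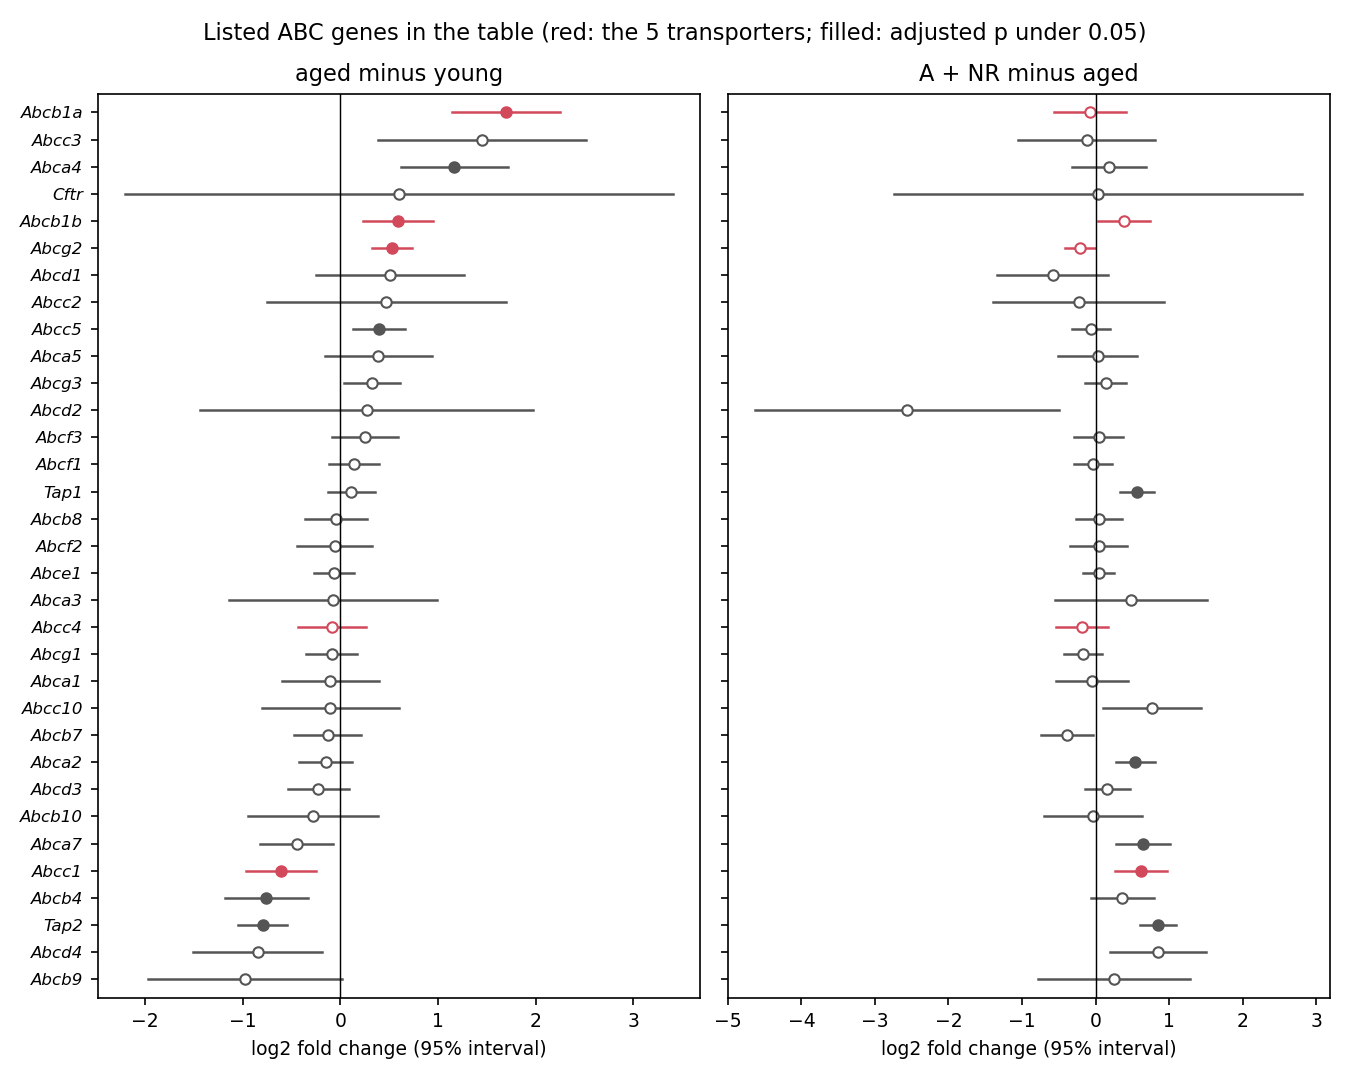
Log2 fold changes with 95% intervals for all 33 listed ABC genes in the table, ordered by the aged minus young difference, with NR-treated aged minus aged beside it; red marks the 5 transporters and filled points passed an adjusted p of 0.05. With age 8 of 33 genes are filled, 5 above and 3 below 0, and with NR 5 of 33, all above 0.

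Carriers of other families that move drugs and organic ions were measured for 12 of 21 genes searched. With age 2 were called higher and 3 lower, beside 9.68% and 9.63% of all genes. Between NR-treated and untreated aged HSC 2 were called higher and 1 lower, beside 3.88% and 4.18% of all genes. Slc22a3, an organic cation transporter, fell from 117.0 ± 19.4 to 38.3 ± 7.10 CPM with age (log2 difference -1.61, edgeR adjusted p = 1.96e-05). It stood at 97.9 ± 34.3 CPM with NR, above untreated aged HSC (1.35, edgeR adjusted p = 0.00123), and like Abcc1 was lowest in aged HSC. Slco2a1, a prostaglandin carrier, rose with age (1.24) and was also above young HSC with NR (1.76). Slc29a2, a nucleoside carrier, rose by 2.34 with age, though its aged mean of 15.1 CPM had an SD of 15.9.

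Glutathione genes, which supply the partner that Abcc1 carries, were measured for 12 of 13. With age 3 (25.0%) were called, near the 19.3% of all genes, and all were higher: Gstm1 (1.04), Mgst3 (0.70) and Gstm5 (0.58), which are glutathione transferases. With NR 4 (33.3%) were called, beside 8.07% of all genes, all lower than in untreated aged HSC, among them Mgst1 (-1.31), Mgst3 (-1.04) and Gsr, the glutathione reductase (-0.87). Of 16 regulators of transporter genes, 4 (25.0%) were called with age, near the 19.3% of all genes. Nfe2l2, the factor of the antioxidant response, rose by 0.41, and Rxrb, a partner of nuclear receptors, fell by 0.71. With NR, Rxrb (0.52) and its partner Nr1h2 (0.41) were higher. Of 8 genes that anchor or recycle transporters at the membrane, 1 was called with age and 2 with NR, beside 19.3% and 8.07% of all genes. Rab11a, which acts in recycling, rose by 0.87 with age and was lower with NR (-0.55), as was Rdx, a linker of membrane proteins to actin (-0.40).

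The genes whose levels followed each transporter most closely over the 15 libraries were found among 10068 genes, by Pearson's r of log2 CPM, with r of the deviations from the group means in brackets. Group differences enter the first value only, and differences in depth between libraries of a group can enter both. For Abcg2 they were Pdzk1ip1, 0.95 (0.70), Etfbkmt, 0.95 (0.71), and Susd3, 0.94 (0.74). For Abcb1a they were Wwtr1, 0.93 (0.64), Olfr632, 0.93 (0.71), and Tnip3, 0.93 (0.61), and without young replicate 3 none of these 3 was still among the 3 closest. For Abcb1b they were Neat1, 0.94 (0.78), Podnl1, 0.93 (0.88), and H2-Eb1, 0.88 (0.51). For Abcc1 they were Agap1, 0.95 (0.94), Mepce, 0.94 (0.87), and Abl2, 0.93 (0.92), and without aged replicate 2 none of these 3 was still among the 3 closest. For Abcc4 they were Ybx1, 0.87 (0.83), Oxct1, 0.86 (0.82), and Snrpd3, 0.84 (0.81).

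**Figure D4:**
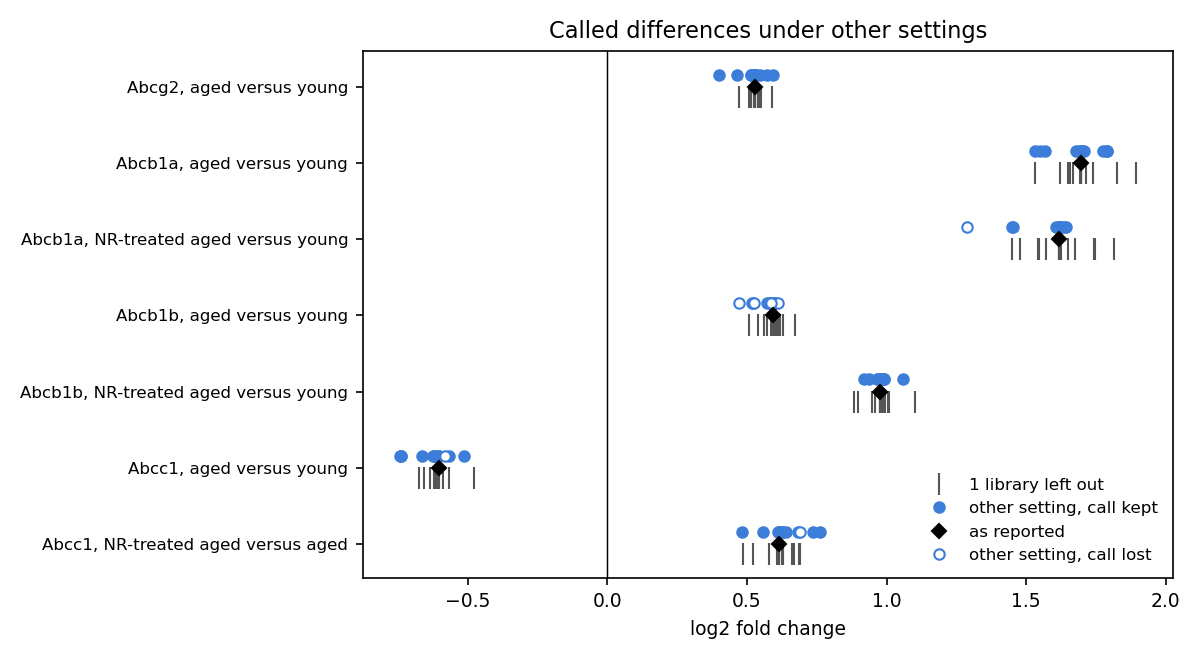
Log2 fold changes of the 7 called differences as reported (diamonds), with 1 library left out (ticks) and under other settings (circles, open where the call was lost). Every value keeps its sign, and open circles occur for Abcb1b and Abcc1 with age, Abcc1 with NR and Abcb1a in NR-treated aged against young HSC.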

How the data were processed

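HSC RNA was sequenced from 15 individual mice with 3′ biased libraries carrying a 10 bp UMI, made from 20000 to 25000 cells. Per the labels and methods, the authors aligned reads to GRCm38 with STAR 2.4.2a, removed duplicated UMIs, assigned reads to genes with featureCounts and filtered low genes. The deposited values are whole-number counts per gene, not normalised. Gene positions came from GENCODE M21, matched by name.

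Counts of all 16154 genes were fitted with edgeR 4.0.16 in R 4.3.3 on TMM sizes, all 15 libraries together, with group as the only term. The p-values of its quasi-likelihood test were adjusted over all genes by Benjamini-Hochberg. Alternatives were the likelihood ratio test, DESeq2 1.42.0, limma 3.58.1 (voom), fits of 2 groups, library totals, DESeq2 size factors, at least 10 counts in every library, thinned counts, a replicate block and each library left out. Leaving out 2 pairs of libraries was chosen after seeing the data. Tests were checked on simulated data. Figures and tables used Python 3.11.15, pandas 2.3.3 and matplotlib 3.10.9. CPM of Y-linked genes used library totals. The smallest total, 764119, limits low genes most. Values of 3 counts or less are near the floor, and they were kept in the fits.

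The transporters and gene lists were chosen with earlier results of these data known. The text names the 5 transporters, every other ABC gene called, at most 3 called genes of each other list with a mean of at least 5 CPM, and for each transporter the 3 genes with the highest r. Kdr, Cldn5, Klrb1c, Plvap, Emcn, Robo4, Egfl7, Kit and Cftr were named after their values were seen.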

Additional observations from a re-analysis of the deposited data

Results flagged for a closer look

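Over 12 genes, 36 groups of 5 libraries were searched for 1 library far from the others, and 4 were found, where chance gives about 1 in 20 groups. Abcc1 stood at 24.7 CPM in aged replicate 2, the shallowest library, against 58.6 to 68.4 CPM in the other aged libraries. Tap1 was 86.4 CPM in young replicate 2, against 97.4 to 100.4 CPM. Abcb4 was 17.2 CPM in NR-treated replicate 5, against 12.4 to 13.5 CPM. Abcc5 was 37.6 CPM in NR-treated replicate 1, against 47.1 to 50.7 CPM.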

How the results depend on the processing

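Across 15 transporter comparisons, 161 of 177 values under other settings and 215 of 225 with 1 library left out kept their direction and their side of the threshold, and at least 10 counts in every library gave no value for Abcb1a. The replicate numbers give no pairing, as same-numbered libraries deviated together by a mean r of 0.00666. The replicate block changed no transporter call. The exact permutation test, unadjusted, passed for Abcg2 in NR-treated aged against aged HSC (-0.20) and against young HSC (0.32) and for Abcc4 against young HSC (-0.28), and DESeq2 passed Abcg2 against young HSC (0.31). Abcb1a in NR-treated aged against aged HSC ran from -0.50 to 0.067 under other settings, the highest with library totals. It was -0.22 to 0.049 with 1 library left out. Thinning lost the calls of Abcb1a in NR-treated aged against young HSC (1.29), Abcb1b with age (0.61) and Abcc1 with NR (0.69). Abcb1b with age was lost with library totals (0.47), without aged replicate 2 and young replicate 3 (0.52) and without the young libraries holding Y-linked RNA (0.58), and Abcc1 with age without the latter (-0.58). With 1 library left out, Abcb1b with NR was 0.29 to 0.51 and Abcc1 with NR 0.49 to 0.69. Abcc1 in NR-treated aged against young HSC turned its sign with voom (-0.012), thinning (-0.054), the permutation test (-0.00123) and without aged replicate 2 and young replicate 3 (-0.030), and was -0.084 to 0.081 with 1 library left out. ABC genes called higher with age went from 5 to 3 with library totals, 2 with the count minimum, 2 after thinning and 3 without the Y-linked libraries. Those lower went from 3 to 5 with library totals and 1 without the Y-linked libraries. Those higher with NR went from 5 to 2 after thinning and 2 to 6 with 1 library left out. Those lower with NR went from 0 to 1 in the fit of 2 groups and without aged replicate 2 and young replicate 3, and 0 to 1 with 1 library left out. In NR-treated aged against young HSC, those higher went from 4 to 2 after thinning and those lower were 0 to 1 with 1 library left out. The causes of these changes were not tested.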

Other observations

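Cftr, a chloride channel of the ABC family, split the libraries within every group. It had 1118 counts in young replicate 5 and 1 to 11 in the other young libraries. It had 1942 and 1629 counts in aged replicates 3 and 4 and 1 to 30 in the other aged libraries. In NR-treated aged HSC it had 752 and 747 counts in replicates 3 and 5 and 5 to 15 in the others. On TMM sizes its level ran from 0.351 to 301.5 CPM, and the log2 difference between aged and young HSC was 0.60, with an interval of -2.20 to 3.40.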
